A study of Homo sapiens with 30 samples.

Results

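Intronic hNABP2 peaks are the sites of hNABP2 chromatin binding that the deposited annotation places inside introns. The members are the rows of the annotated peaks of anti-hNABP2 ChIP repeat 1 whose annotation begins with "Intron". They number 337 of 10055 annotated peaks, or 3.35%, and they lie in 301 host genes. The other annotated peaks of the repeat comprise 8981 promoter peaks within 1 kb of a start, 272 promoter peaks between 1 and 3 kb, 368 distal intergenic peaks and 97 peaks in exons, UTRs or just downstream of genes. The annotation ranks promoters above introns, so no member lies within 3 kb of a start that it holds, and the nearest member lies 3009 bp away.

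All libraries came from HT1080, a human fibrosarcoma cell line, at passages 10 to 15, grown in serum-containing medium with no added agent. ChIP used WT cells and a homemade anti-hNABP2 antibody in 2 repeats. Global run-on (GRO-seq), in which nuclei extend engaged transcripts with labelled nucleotides, covered libraries labelled hNABP2 KO, hNABP1 KO and WT, each with NTP and with no NTP, in 3 repeats per group. DRIP-seq, in which the S9.6 antibody captures RNA:DNA hybrids, covered hNABP2 KO and WT cells in 2 repeats each, used here without RNase H. How the knockouts were made, from how many clones, and which control the peak calls used, the sources used here do not give. IgG values were not analysed here.

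The gene NABP2 encodes hNABP2, also called hSSB1, and NABP1 encodes hNABP1, also called hSSB2. These proteins bind single-stranded DNA. Each joins INTS3 and INIP in the SOSS complex, which acts in the response to DNA breaks and shares INTS3 with Integrator, the complex that cleaves nascent RNA and ends transcription at paused polymerase. Single-stranded DNA is exposed at transcription bubbles and R-loops, most of all just downstream of active promoters. Introns hold enhancers, alternative promoters and the starts of non-coding transcripts within long transcribed stretches.

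Several facts about the libraries bear on what follows. Run-on libraries held 5272 to 164357 counts, with repeat 3 the deepest in each group. With NTP, NABP2 had 4, 3 and 15 counts in the libraries that bear the label hNABP2 KO and 4, 0 and 8 in WT, and NABP1 had 0, 1 and 18 counts in libraries labelled hNABP1 KO and 1, 0 and 19 in WT. The run-on counts thus do not show the loss of either gene that the labels name. At 0 to 19 counts per library they are too few to decide whether either was lost. Nor do the sources give the strand setting, so reads of a host and of an antisense partner cannot be told apart. The run-on peak list of hNABP1 KO repeat 3 stands apart, with 9965 peaks against 94 to 518 in the other 8 lists, so overlaps are given with and without it. With NTP, the summed level of 10 mesenchymal markers was 2105 to 15043 CPM (counts scaled by the library total) with the label hNABP2 KO, 1411 to 32173 CPM with the label hNABP1 KO and 1381 to 24647 CPM in WT. Most of the high sums was COL5A1, without which the ranges were 456 to 3217, 545 to 2885 and 340.0 to 2087 CPM, and 8 of the 10 genes were at 0 in each repeat 2 library. The 6 epithelial markers summed to 276 to 1941, 164 to 2705 and 195 to 2921 CPM, the 5 neural markers to 304 to 460, 180 to 364 and 0 to 341 CPM, and the 5 leukocyte markers to at most 112 CPM.

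In 12 of the 337 members (3.56%) a start of a RefSeq gene lay within 1 kb of the peak, against 70.8% of all annotated peaks. The rule sets most of this gap, since it leaves out peaks near the starts of the deposited annotation. For 8 starts the bases just upstream lay inside the member. The 5 windows shown each held a match, inside the peak, to a motif named below. The windows of LOC107985687 in BCOR and LOC124900609 in LINC02646 held no such match and are not shown. That of LOC105376689 overlaps the CAMTA1 window and is not shown either. Sequences are from RefSeq on GRCh38.p14, 5′ to 3′ on the strand of the RefSeq gene, limited to the bases upstream of its start that the peak covers. Capitals mark matches, on either strand, to TGANTCA, the AP-1 consensus, to the GC box GGGCGG, to the CCAAT box, to the E-box CACGTG, to the TEAD core GGAATG and to the CRE core TGACGT.
LOC105378482 in DUSP5-DT, chr10:110447437-110447547, minus strand: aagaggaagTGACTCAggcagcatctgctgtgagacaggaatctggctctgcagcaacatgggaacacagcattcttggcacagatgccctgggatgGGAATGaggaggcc
LOC102723480 in BCAR3, chr1:93693030-93693150, plus strand: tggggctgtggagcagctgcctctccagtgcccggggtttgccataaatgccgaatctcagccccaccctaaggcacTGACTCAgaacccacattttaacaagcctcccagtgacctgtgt
MAST3, chr19:18117757-18117938, plus strand: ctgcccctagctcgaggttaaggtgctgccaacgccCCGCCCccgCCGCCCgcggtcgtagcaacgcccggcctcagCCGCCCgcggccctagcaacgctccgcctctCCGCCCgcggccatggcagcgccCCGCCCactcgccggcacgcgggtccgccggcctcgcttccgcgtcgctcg
TMEM181, chr6:158559976-158560090, plus strand: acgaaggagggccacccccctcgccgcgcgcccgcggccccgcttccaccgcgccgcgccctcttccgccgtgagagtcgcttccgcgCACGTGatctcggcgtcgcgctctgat
CAMTA1, chr1:7704486-7704735, plus strand: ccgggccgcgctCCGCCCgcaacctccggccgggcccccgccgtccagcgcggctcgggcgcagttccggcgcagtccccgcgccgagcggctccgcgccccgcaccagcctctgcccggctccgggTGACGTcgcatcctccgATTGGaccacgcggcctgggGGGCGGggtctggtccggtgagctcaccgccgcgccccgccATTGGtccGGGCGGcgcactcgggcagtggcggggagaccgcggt

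These windows were of unlike kinds. Over the 250 bases upstream of the start, the MAST3 window, in a gene for a serine/threonine kinase, held 37 CpG and 77.2% G and C, and the CAMTA1 window, in a gene for a calmodulin-binding transcription activator, held 42 CpG and 80.4%. The windows in DUSP5-DT and BCAR3 held 1 and 4 CpG with 47.2% and 55.2% G and C. The median over 35116 RefSeq promoters was 58.0% G and C and 11 CpG. The windows of CAMTA1 and of LOC105376689 overlap on opposite strands under the same peak, so the 8 windows are 7 loci. TGANTCA occurred in 2 of the 7 loci, those in DUSP5-DT and BCAR3, and in 6.57% of all RefSeq promoters at the same length. GGGCGG occurred in 4 of the 7 and in 42.6% of all, CCAAT in 2 and 32.0%, CACGTG in 1 and 6.34%, GGAATG in 2 and 11.9%, and TGACGT in 1 and 7.10%. These counts run over the full 250 bases, which some peaks cover only in part. GGGCGG in the TMEM181 and BCOR windows, CCAAT in that of DUSP5-DT and GGAATG in that of TMEM181 lay only outside the peak. The motif matches describe letters only, and the other members could not be read, since no genome was used here.

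The intronic peaks were narrow and weakly supported, with high fold. The fold, the authors' ratio of the ChIP signal at the summit to its local background, had a median of 4.28 in introns, 3.16 at promoters within 1 kb and 3.58 in distal intergenic peaks. The −log10 q at the summit, the authors' measure of support, ran the other way between introns and promoters, with medians of 3.59, 12.8 and 6.21. Median lengths were 214, 380 and 246 bp. The highest −log10 q of any member was 46.7, against 1219.7 among promoter peaks. Of the members, 209 (62.0%) had a −log10 q under 5, against 13.6% of promoter peaks and 41.6% of distal peaks. Across peaks, fold and −log10 q went together at promoters (Spearman's rank correlation 0.85 over 8981 peaks) and hardly in introns (0.10 over 337 peaks) or distal intergenic peaks (0.05 over 368). These are descriptions of peaks from 1 library, which share its depth and background.

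The weak relation in introns came with 2 separate bands in the plane of fold and support. In the lower band, the fold of 154 members (45.7%, 95% interval 40.3% to 51.2%, exact Clopper-Pearson, counting error only as for all intervals here) was a whole multiple, from 5 to 12 times, of a single step of 0.713, within 0.001 of a step. All peaks on a step shared 1 −log10 q. There were 32 members at a fold of 3.57 with a −log10 q of 1.32, 55 at 4.28 with 2.40, 29 on the next step with 3.55 and 23 at 5.70 with 4.77. Only 56 promoter peaks (0.624%) lay on such steps, against 98 distal peaks (26.6%). The median fold of the members, 4.28, is itself the value of 1 step. Off the steps, the 183 remaining members had a median fold of 3.83 and a median −log10 q of 6.51. Repeated folds occurred among these too, such as 4.08 in BOC, ZNF507 and PAPPA and 4.66 in MAML3 and PEX5L. Of all members, 283 (84.0%) shared both fold and −log10 q with another annotated peak, against 69.7% of all annotated peaks. The split thus rests on a single step size, and other step sizes were not tested.

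**Figure D1:**
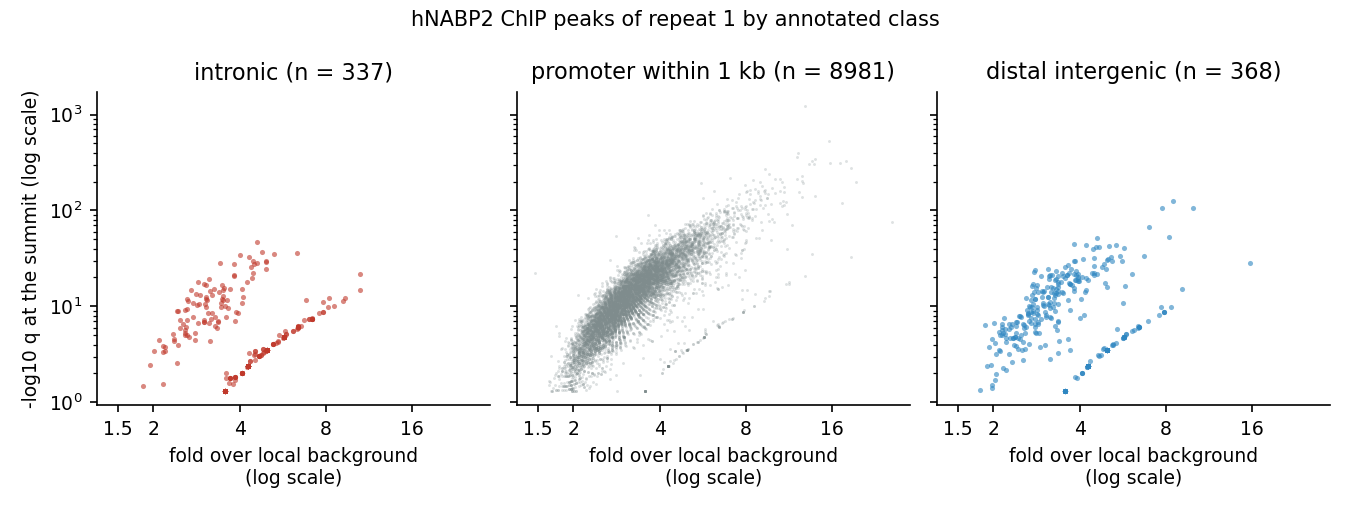
Fold over local background (x axis, log scale) against the −log10 q at the summit (y axis, log scale) for each hNABP2 peak of ChIP repeat 1, in 3 panels for intronic, promoter and distal intergenic peaks, 1 point per peak. Intronic peaks split into an upper cloud and a lower line of evenly spaced folds, which holds 154 of the 337 members on 1 series of steps and few of the 8981 promoter peaks.

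The 10 members with the highest folds sat in coding and non-coding genes. The highest was in DANT2, a long non-coding RNA gene on chromosome X, at a fold of 10.5 and a −log10 q of 21.8. FRMD4A, a FERM-domain scaffold of cell polarity, also reached 10.5 with a −log10 q of 15.0. DENND2A, an exchange factor for Rab GTPases, followed at 9.32 and AC104123.1 at 9.15. IQCJ-SCHIP1, a readthrough gene, stood at 8.56, TRPM8, the cold-sensing ion channel, at 8.21, and SEMA5A, a semaphorin of axon guidance, at 8.15. ME3, a mitochondrial malic enzyme, and CDK6-AS1, an antisense RNA, both stood at 7.84, on the same step of the series. PXN, the focal adhesion adaptor paxillin, stood at 7.80 with a −log10 q of 11.2, and its member lay in the first of 10 introns, at chr12:120231426-120231673. None of these 10 peaks overlapped a peak of ChIP repeat 2.

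Few members recurred in the second ChIP repeat. Of the 337, 13 (3.86%, interval 2.07% to 6.51%) overlapped a repeat 2 peak by 1 bp or more, where 22.6% of all annotated peaks did. The share was 24.5% at promoters and 9.78% in distal intergenic peaks. Repeat 2 has 2832 peaks against 10068 in repeat 1, so most repeat 1 peaks of any class could have no partner there. Of the 37 peaks that repeat 2's own annotation puts in introns, 13 (35.1%) overlapped a repeat 1 peak of any class, against 82.1% of its promoter peaks and 60.0% of its distal peaks. Intronic peaks made up 1.31% of the repeat 2 annotation.

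The share in introns was below that at promoters also at matched support under a −log10 q of 10, where their intervals did not overlap, while the intervals of intronic and distal peaks overlapped in every class of support. At a −log10 q under 3, 0 of 119 members overlapped repeat 2, which allows a share of up to 3.05%, against 16.2% of promoter peaks and 2.78% of distal peaks. At 3 to 5 it was 2 of 90 (2.22%), against 18.9% and 6.17%, and at 5 to 10 it was 2 of 67 (2.99%), against 21.2% and 6.90%. At 10 to 20 it was 5 of 42 (11.9%, interval 3.98% to 25.6%), against 24.5% and 8.57%. At 20 to 50 it was 4 of 19 (21.1%, interval 6.05% to 45.6%), against 28.7% and 26.9%, so from 10 upwards the intronic interval held the promoter share. Peak length was not matched, and its part in these shares was not tested. None of the 154 members on the steps recurred, against 13 of the 183 off them (7.10%). A high fold did not mark the recurring members, since 0 of the 72 with a fold of 5 or more recurred, while 11 of the 128 with a −log10 q of 5 or more did (8.59%).

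**Figure D2:**
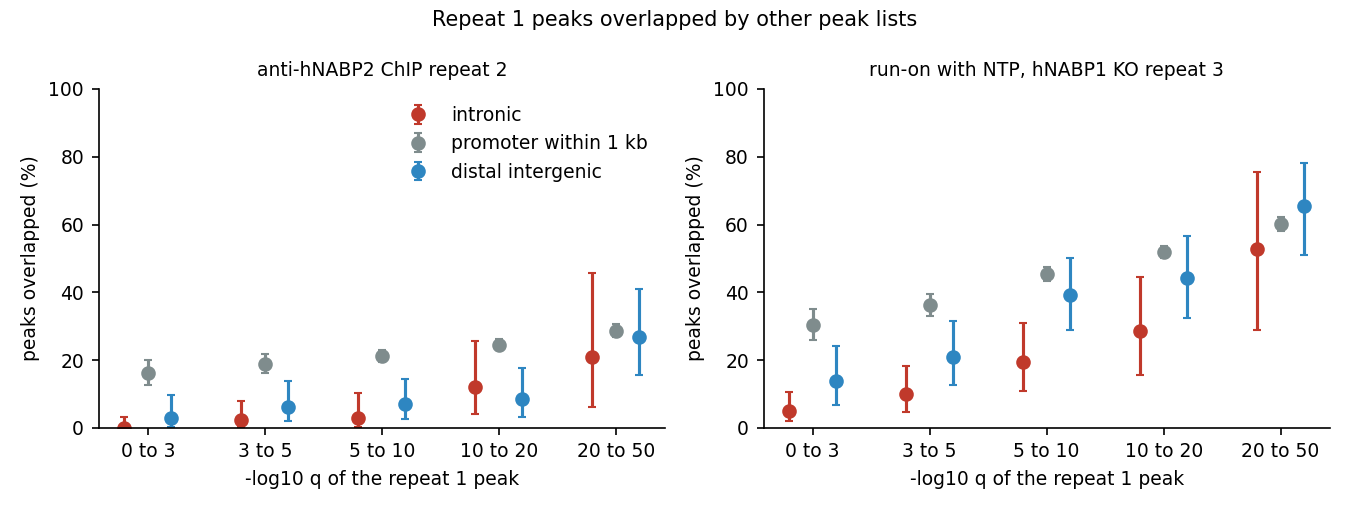
Share of repeat 1 peaks (y axis, %) overlapped by a peak of ChIP repeat 2 (left) and of the run-on library hNABP1 KO repeat 3 (right), by class of −log10 q (x axis), for intronic, promoter and distal intergenic peaks. Points are shares and bars exact 95% intervals for counting error. Intronic shares lie below promoter shares at low support, with 0 of 119 against 16.2% under 3 on the left, and on the left their intervals overlap from 10 upwards.

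The 13 recurring members were longer and better supported than the rest, with a median length of 481 bp against 211 bp and a median −log10 q of 13.0 against 3.55. Their median fold was lower, 3.53 against 4.28. The highest fold in repeat 2 was in the unnamed gene ENSG00000249738, at chr5:159773227-159773637, with 3.04 in repeat 1 and 7.58 in repeat 2. ENSG00000287635 on chromosome 13 had 2.36 and 7.14, and RPS10P7, a ribosomal protein pseudogene on chromosome 1, had 3.82 and 7.08. The lists were called separately, so the folds of the 2 repeats are set side by side and not compared.

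BCOR, the corepressor that partners BCL6 and a variant Polycomb complex, was the only host with more than 1 recurring member. Its members lay in the first intron, at chrX:40104966-40105454 with folds of 3.58 and 6.43 in repeats 1 and 2, and at chrX:40106216-40106538 with folds of 3.16 and 6.81 in the same order. The second peak covers the start of LOC107985687, and the BCOR promoter had a peak of its own at a fold of 6.18 in repeat 1. TMEM181, a transmembrane protein gene, had the best supported recurring member, at chr6:158559976-158560597, with folds of 4.31 and 6.50 and a −log10 q of 32.7 in repeat 1. It covers the RefSeq start of TMEM181 itself, shown above with its E-box.

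The other recurring members had hosts of several kinds. ZMIZ1-AS1, an antisense RNA gene on chromosome 10, had folds of 4.94 and 6.43, and SPRY4-AS1, antisense to a feedback inhibitor of growth factor signalling, had 3.69 and 3.73. LMO4, a LIM-only transcriptional adaptor, had 3.06 and 5.41, and HIVEP2, a large zinc finger transcription factor, had 2.76 and 5.01. ADGRB1, an adhesion G protein-coupled receptor, had 3.53 and 4.49, LDB3, a protein of the muscle Z-disc, had 4.49 and 4.42, and ENSG00000254553 had 2.90 and 4.21. By host type, 7 of 240 members in protein-coding hosts recurred (2.92%) and 6 of 97 in other hosts (6.19%). Of the 12 members near a RefSeq start 3 recurred (25.0%), those in TMEM181, BCOR and RPS10P7, against 10 of the other 325 (3.08%). Without the peaks near such starts, the count of recurring members was therefore 10.

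First introns held the most members. There were 128 in intron 1 (38.0%, interval 32.8% to 43.4%), 75 in intron 2, 41 in intron 3 and 93 in a later intron. Of the 128, 21 lay in transcripts with a single intron, so intron 1 of a longer transcript held 107 (31.8%). How much of the total intron length is first intron was not used here, so no enrichment is stated. The median distance to the nearest annotated start was 11547 bp, with quartiles of 6472 and 22107 bp and a maximum of 186421 bp. In 130 members the nearest start belonged to a gene other than the host.

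Fold had the same median at every rank, while support varied. The median fold was 4.28 at each of intron 1, 2, 3 and later, and the median −log10 q was 4.65 in intron 1, 3.81 in intron 2, 2.40 in intron 3 and 3.55 later. Recurring members numbered 7 of 128 in intron 1, 1 of 75 in intron 2, 1 of 41 in intron 3 and 4 of 93 later. Of the members, 29 lay in intron 10 or beyond, and 0 of those recurred. The deepest were 3 in COL5A1, in introns 53, 54 and 63 of 65, followed by DNAH5, an axonemal dynein chain, in intron 40 of 78, TLN2, a talin that links integrins to actin, in intron 40 of 57, and the collagen gene COL15A1 in intron 36 of 42.

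**Figure D3:**
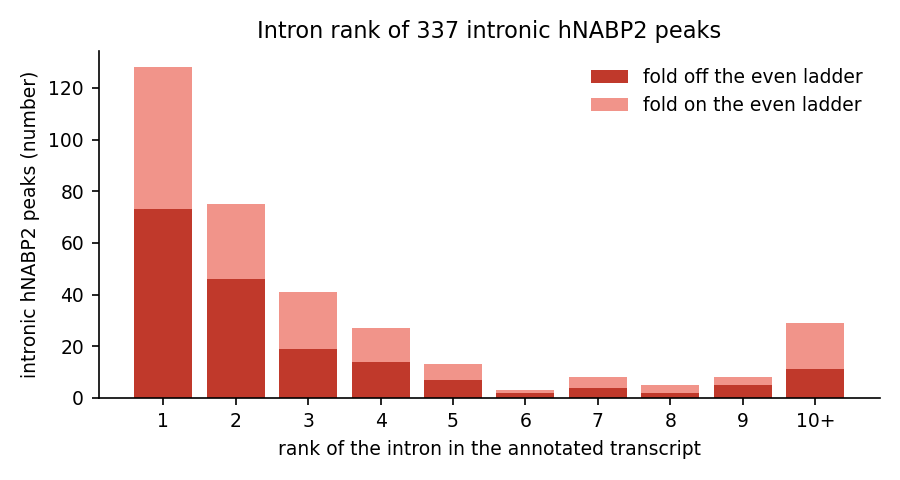
Number of intronic hNABP2 peaks (y axis) by the rank of the intron in the annotated transcript (x axis, ranks of 10 and above together), split by whether the fold lies on the series of even steps. Intron 1 holds 128 of the 337 peaks and intron 2 holds 75, and peaks on the steps occur at every rank.

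Most hosts had a single member. Of the 301 host genes, 274 had 1 intronic peak, 20 had 2 and 7 had 3 or more. Protein-coding genes made up 211 hosts (70.1%) and long non-coding RNA genes 47, while 40 had no entry in the RefSeq table. BCAR3, an adaptor that binds the focal adhesion protein p130Cas, had 4 members with folds of 3.70 to 6.42 over 87.1 kb, and 3 of these lay within intron 3. IQCJ-SCHIP1 had 4 with folds of 3.57 to 8.56. FRMD4A had 3 from 3.58 to 10.5, NTM, a neural cell adhesion molecule, 3 from 4.28 to 7.13, CAMTA1 3 from 2.67 to 5.70, and HIVEP3, a zinc finger gene of the same family as HIVEP2, 3 from 3.57 to 6.37. COL5A1, a chain of type V collagen, differed from these in that its 3 members were packed within 12.4 kb near the end of the gene, at low folds of 3.11 to 3.33 and none on the steps. No member in these 7 hosts recurred in repeat 2.

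Host genes often had a promoter peak too. Of the 301 hosts, 138 (45.8%) had a peak within 1 kb of their own start in repeat 1. Among genes in the run-on count table it was 137 of 244 hosts (56.1%, interval 49.7% to 62.5%), against 7106 of 23454 genes (30.3%). In repeat 2, whose list played no part in choosing the members, it was 77 of 244 hosts (31.6%, interval 25.8% to 37.8%), against 9.76% of genes. The hosts were long, with a median span of 134 kb against 18.3 kb for all genes of the table with a RefSeq span, and length and transcription were not matched here. For 165 members whose host had a promoter peak, the intronic fold was the higher in 121, with medians of 4.28 and 3.36. The intronic −log10 q was the higher in only 22, with medians of 4.32 and 14.4. Members recurred at like shares with a host promoter peak, 6 of 165 (3.64%), and without one, 7 of 172 (4.07%).

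Run-on peaks rarely lay on the members. Of the 337, 53 (15.7%) overlapped a run-on peak in any of the 9 lists with NTP, against 50.7% of all annotated peaks. The single list of hNABP1 KO repeat 3 accounted for 50 of them (14.8%, interval 11.2% to 19.1%), against 48.1% of all annotated peaks, 50.7% at promoters and 35.3% in distal peaks. This share rose with support in each class. At a −log10 q under 3 it was 5.04% in introns, 30.4% at promoters and 13.9% in distal peaks. At 5 to 10 it was 19.4%, 45.3% and 39.1%. At 20 to 50 it was 10 of 19 members (52.6%, interval 28.9% to 75.6%), against 60.1% and 65.4%. The other 8 lists overlapped 5 members (1.48%), against 6.99% of all annotated peaks. On the steps, 8 of 154 members (5.19%) met a peak of hNABP1 KO repeat 3, against 42 of 183 off them (23.0%). Support was not matched here, with a median −log10 q of 2.40 on the steps and 6.51 off them. Of the members whose host had a promoter peak 12 of 165 (7.27%) met a peak of that list, against 38 of 172 (22.1%) whose host had none.

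A few members met run-on peaks in more than 1 list. AP003778.1 on chromosome 11 had its member at chr11:59550427-59550590 under run-on peaks of 4 libraries, with run-on folds of 6.42 in hNABP2 KO repeat 1, 8.89 in hNABP2 KO repeat 2, 11.1 in hNABP1 KO repeat 1 and 5.74 in WT repeat 1. This member was seen in all 3 genotypes, in repeats 1 and 2. ERCC1, a subunit of the nuclease of nucleotide excision repair, had a member in intron 1 of 8 under peaks of hNABP1 KO repeat 3 (7.56) and WT repeat 3 (5.88), and RNFT2, a RING finger gene, had one in intron 7 of 10 under peaks of the same libraries (22.7 and 6.34). The member in DUSP5-DT met a peak of hNABP1 KO repeat 1 (3.93), and that in AC013762.1 met one of hNABP2 KO repeat 3 (6.33).

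Next by ChIP fold among members under a run-on peak came DANT2, IQCJ-SCHIP1 and TRPM8, named above, with run-on folds of 2.84, 2.84 and 4.73 in hNABP1 KO repeat 3. MYH16 had 4.73, and FTO, an RNA demethylase, had 3.77. Of the 13 members that recurred in ChIP repeat 2, 5 lay under a peak of hNABP1 KO repeat 3, in LDB3 (6.37), ADGRB1 (5.67), BCOR (4.55), ENSG00000254553 (7.12) and ENSG00000287635 (4.55). None of the 13 lay under a peak of the other 8 lists. In DRIP, 0 of the 337 members overlapped a peak of the 4 lists, which allows a share of up to 1.09%, against 0.537% of all annotated peaks, so no difference was detectable at this number of peaks.

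Transcription of the hosts was measured by run-on counts. Of the 244 hosts in the count table, 232 (95.1%) had a count summed over the WT libraries with NTP, against 77.7% of all genes of the table, and the median was 9 counts against 4. Per kb of gene the order was the other way, with a median of 0.0645 counts per kb in hosts and 0.139 in all genes. With no NTP, where no nucleotides are supplied, 146 hosts (59.8%) had a count in WT, against 39.7% of all genes, at a summed depth of 182221 counts with NTP and 33739 with no NTP. Hosts with a promoter peak had a median of 12 counts in WT with NTP and hosts without one 6.

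The share of the counts that the hosts took was carried in part by COL5A1. With NTP the share of all hosts was 2.26% ± 0.904 in hNABP2 KO, 2.72% ± 1.80 in hNABP1 KO and 2.51% ± 1.39 in WT (SD, n = 3 each). With no NTP it was 2.56% ± 0.834, 4.01% ± 1.53 and 2.50% ± 1.14. COL5A1 held 237 of 357 host counts in hNABP1 KO repeat 2 and 143 of 242 in WT repeat 2 with NTP, and 988 of 1280 in hNABP1 KO repeat 3 with no NTP. Without COL5A1, an alternative chosen after seeing the data, the share with NTP was 1.65% ± 0.205 in hNABP2 KO, 1.48% ± 0.291 in hNABP1 KO and 1.57% ± 0.105 in WT (SD, n = 3 each). With no NTP it was then 1.87% ± 0.228, 1.54% ± 0.330 and 1.35% ± 0.0724.

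Since libraries of the same repeat number deviated together, the shares were also compared within repeats. With NTP, hNABP2 KO was above WT in 1 of 3 repeats and hNABP1 KO in 2 of 3, and without COL5A1 in 2 of 3 and 1 of 3. With no NTP, the share of all hosts was higher in hNABP1 KO than in WT in each repeat, at 2.35% against 1.72%, 4.33% against 3.81% and 5.36% against 1.97%, and without COL5A1 in 2 of 3. hNABP2 KO with no NTP was above WT in 1 of 3 repeats, and without COL5A1 in 3 of 3. These shares were not tested.

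**Figure D4:**
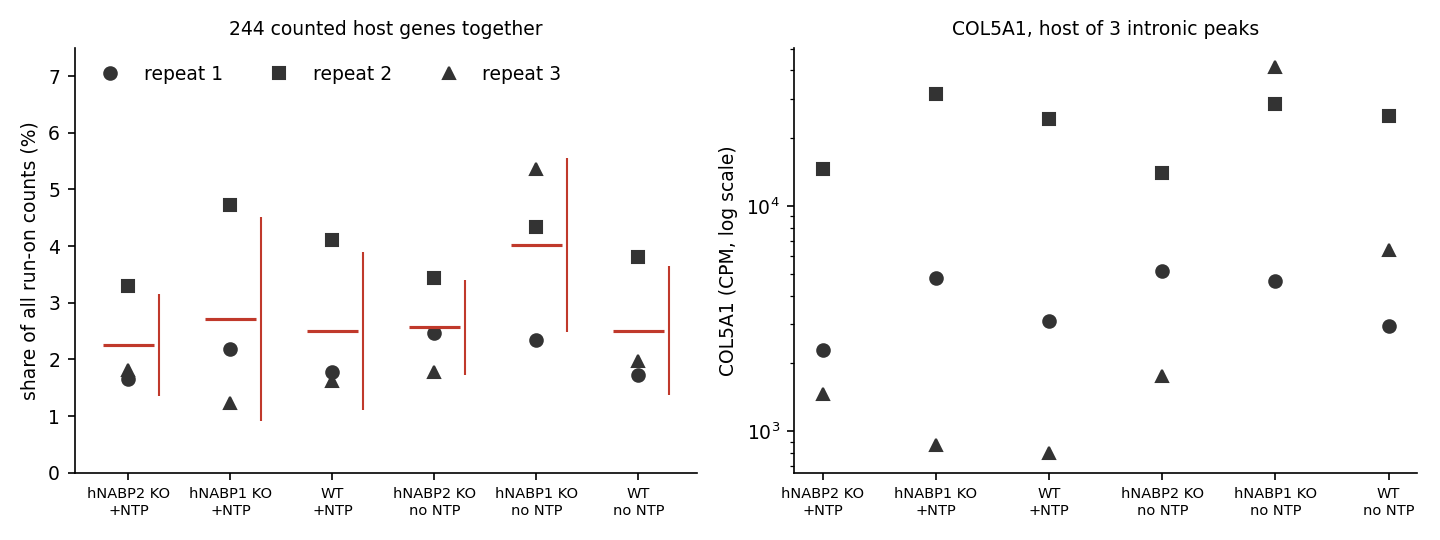
Left, share of all run-on counts (y axis, %) in the 244 counted host genes for each library, with the mean (line) and SD (bar) of each group of 3. Right, CPM of COL5A1 in each library (y axis, log scale). Groups on the x axis are genotypes with NTP and then with no NTP, and symbols give the repeat. The group means with NTP are 2.26%, 2.72% and 2.51%. With NTP, COL5A1 differs more between repeats than between genotypes. With no NTP, its repeat 3 levels are 1763 CPM in hNABP2 KO, 41400 CPM in hNABP1 KO and 6391 CPM in WT.

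The host with the most run-on counts was COL5A1. It had 45, 96 and 170 counts in hNABP2 KO, 53, 237 and 100 in hNABP1 KO and 37, 143 and 131 in WT. As CPM these were 2298, 14587 and 1466 in hNABP2 KO, 4779, 31378 and 866 in hNABP1 KO and 3088, 24307 and 797 in WT. Repeat 2 was the highest in each genotype, and the groups overlapped. With no NTP its level in WT was 2928, 25228 and 6391 CPM, above that with NTP in repeats 2 and 3. One library labelled hNABP1 KO with no NTP, repeat 3, had 988 counts or 41400 CPM, the highest level of COL5A1 among the 18.

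CLMAT3, a long non-coding RNA gene counted as CTB-113P19.1, followed. It had 48, 28 and 30 counts in hNABP2 KO, 28, 28 and 16 in hNABP1 KO and 31, 23 and 31 in WT. Its counts hardly grew with the depth of repeat 3, and with no NTP WT held 28, 15 and 11. As CPM, WT was at 2587, 3910 and 189 with NTP and at 3037, 2845 and 572 with no NTP. The level with no NTP was thus the higher in repeats 1 and 3. Its single member lay in the last of 2 introns, at a fold of 3.85 and a −log10 q of 1.84.

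The next 8 hosts by WT counts were near the limit of the shallow repeats. LAMA5, a basement membrane laminin chain, had 4, 3 and 15 counts in hNABP2 KO, 2, 0 and 16 in hNABP1 KO and 3, 1 and 36 in WT. IRS1, the insulin receptor substrate, had 6, 6 and 17 in hNABP2 KO, 8, 2 and 9 in hNABP1 KO and 5, 4 and 28 in WT. BCAR3 had 8, 1 and 30 in hNABP2 KO, 3, 2 and 10 in hNABP1 KO and 4, 2 and 27 in WT. These genes had most of their counts in repeat 3, as did PLXNA1, a semaphorin receptor, the retinoid receptor RXRA, the ciliary rootlet gene CROCC, the guanine nucleotide exchange factor TRIO and the lamin gene LMNA, which had 31, 35, 34, 28 and 32 counts in WT repeat 3. IQCJ-SCHIP1, with its 4 members, had 0 counts in every run-on library, although a member of it lay under a run-on peak of hNABP1 KO repeat 3. It is a readthrough gene and the counting tool is not given. A count of 0 under its symbol therefore need not mean no transcription.

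Whether host run-on counts changed with genotype could be tested for few genes. In the quasi-likelihood test of edgeR over 129 genes that passed the count filter, 0 genes (0%) changed between the label hNABP2 KO and WT, and 0 (0%) between hNABP1 KO and WT. At an unadjusted p under 0.05 there were 0 and 1, and DESeq2 called 0 in both. Only COL5A1 and CLMAT3 were hosts among the 129. Mean CPM of COL5A1 in hNABP2 KO, hNABP1 KO and WT was 6117, 12341 and 9398 with NTP. With no NTP it was 6979, 24757 and 11516. For CLMAT3 the means in that order were 2322, 2123 and 2229 with NTP and 4041, 3181 and 2151 with no NTP. Only CLMAT3 in WT had the higher mean with NTP, so the values tested need not measure nascent transcription. For hNABP2 KO the log2 fold change was -0.32 ± 0.829 (SE) in COL5A1 and 0.08 ± 0.628 (SE) in CLMAT3, both at an edgeR adjusted p of 0.990. For hNABP1 KO it was 0.26 ± 0.828 (SE) in COL5A1 and -0.19 ± 0.632 (SE) in CLMAT3, both at an edgeR adjusted p of 1.00. The model had no term for the repeat, so these SEs hold the spread between repeats. With the repeat as a block, COL5A1 was at -0.14 in hNABP2 KO and 0.34 in hNABP1 KO. CLMAT3 was then at 0.09 and -0.21, and again no gene was called. These fits scale by the counts of the tested genes, so the log2 values need not follow CPM.

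With a filter of 10 or more counts in total, 201 hosts were among 13445 genes tested, and again none was called. In libraries labelled hNABP2 KO 115 of the 201 had a positive and 86 a negative log2 fold change, with a median of 0.10 against 0.02 over all genes. In libraries labelled hNABP1 KO 93 were positive and 108 negative, with a median of -0.04 against -0.09. Directions over all genes were not counted, so the host counts by direction show no shift of the hosts. With the repeat as a block as well, 10 genes (0.0744%) were called in hNABP1 KO, of which 0 were hosts, and 0 in hNABP2 KO.

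Of 5 lists of pathway genes, 3 held a host. None of 17 SOSS and Integrator genes and none of 17 DNA break repair genes was a host, where hosts made up 0.922% of the genes of the count table. Of 28 actin, adhesion and cytoskeleton genes 2 were hosts, PXN and PALLD, the actin crosslinker palladin, whose member lay in intron 2 of 21. Of 22 TGF-beta, Hippo and AP-1 genes 1 was a host, TGFB1, the growth factor itself, with 2 members in its intron 2 at folds of 2.17 and 3.05. Of 12 extracellular matrix genes 1 was a host, COL5A1. In repeat 1, promoter peaks were found at 23 of the 28 actin, adhesion and cytoskeleton genes, 21 of the 22 TGF-beta, Hippo and AP-1 genes, 7 of the 12 extracellular matrix genes, 8 of the 17 SOSS and Integrator genes and 9 of the 17 repair genes, against 30.3% of the genes of the count table. The lists were chosen with earlier results of these data known. The counts of hosts and of promoter peaks in them are therefore descriptions and lend no independent support.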

How the data were processed

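Members and gene lists were chosen with earlier results of these data known. Reads had been handled with Bowtie2 2.3.5, cutadapt 1.18, MACS2 2.2.1 and SAMtools on hg38, per the submitters' processing notes, in no stated order. The counting tool and its strand setting, and the control of the peak calls, were not given in the sources used here.

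The deposited list of ChIP repeat 1 gives the −log10 q at each summit, and its fold, a ratio over local background, comes from the deposited annotation. The other deposited lists give a fold and −log10 p and q values. The deposited annotation also gives each peak's class, host transcript, intron rank and nearest start, and a signal score that was not used. The deposited count table holds raw counts per gene symbol with no normalization by the authors. Starts were written 1-based. The annotated table of repeat 1 holds 10055 of 10068 listed peaks.

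From these, overlaps of 1 bp or more were counted in Python 3.11.15, with exact 95% Clopper-Pearson intervals. Hosts were matched to count symbols by gene ID and current or older symbol, 244 of 301. RefSeq starts and sequences are from GRCh38.p14, and motifs were searched in RefSeq windows because peak sequences were not read here. Counts of the 9 libraries with NTP were fitted in 1 model with edgeR 4.0.16 (R 4.3.3, filterByExpr, TMM, quasi-likelihood F test, Benjamini-Hochberg over all tested genes, threshold 0.05). DESeq2 1.42.0 was the alternative. The edgeR fit was tested on simulated counts with a fixed dispersion and no repeat effect. Recovery of planted changes was required only at a simulated depth far above the real one. The test therefore says nothing of power at the real depth. Totals were 5272 to 164357 counts per library. Per the labels' protocols there were 2 independent experiments, yet run-on has 3 repeats, so p-values and SDs measure spread between libraries, which may be technical.

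Repeat numbers came from the titles. With group means removed over 129 genes, the 9 same-number pairs correlated at 0.563 to 0.843 and pairs of unlike number at -0.69 to 0.119, which pairs the libraries by number. Alternatives were another normalization, other count filters, the replicate block, stricter peaks and overlaps, and wider distances. Each library of WT and of the knockout compared was also left out in turn. Named peaks and genes were those with the 10 highest folds in repeat 1, the 10 highest repeat 2 folds among recurring peaks, up to 10 under run-on peaks, hosts with 3 or more peaks, the 10 hosts with most WT counts and the tested hosts. The last 3 recurring peaks, the deepest introns and the genes of the lists were named beside these.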

Additional observations from a re-analysis of the deposited data

How the results depend on the processing

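The count of recurring members depended on the overlap asked for. With 50% of the member covered, 5 overlapped ChIP repeat 2, with −log10 q of 5 or more 11, with fold of 5 or more 0, and without peaks within 1 kb of a RefSeq start 10. The last alternative, the combined fit below and the host share without COL5A1 were added after seeing the data. Without the list of hNABP1 KO repeat 3, members under a run-on peak fell to 5, and within 1 kb of a run-on peak in any list there were 64. Within 1 kb of a DRIP peak there was 1, and within 3 kb of a RefSeq start 21. With the nearest gene in place of the host, 180 of 199 genes had a WT count with NTP.

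With the replicate block, edgeR called 0 genes for hNABP2 KO and 0 for hNABP1 KO. Every single alternative also called 0, leaving out any 1 library of WT or of the knockout compared included. The replicate block with 10 or more counts called 10 in hNABP1 KO. That combined fit turned COL5A1 to 0.045 on the log2 scale in hNABP2 KO. With 1 library left out, COL5A1 ran from -0.63 to 0.62 and CLMAT3 (CTB-113P19.1) from -0.30 to 0.46 in hNABP2 KO, and in hNABP1 KO COL5A1 ran from -0.48 to 1.26 and CLMAT3 from -0.57 to 0.19. The cause was not tested. Of 48 alternative values for these 2 hosts, 39 kept their direction. Depth limits these tests, since 2 of 244 counted hosts passed the filter.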

Other observations

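Shares by chromosome are given for the 4 with the most members and for chromosome 19, chosen after their values were seen, with no test. Chromosome 1 held 12.8% of members, 9.77% of promoter peaks and 10.3% of distal peaks. Chromosome 3 held 10.1% of members, against 6.35% of promoter peaks and 9.51% of distal peaks. Chromosome 5 held 8.61% of members, against 4.61% of promoter peaks and 4.89% of distal peaks, and chromosome 11 held 8.31%, against 5.66% and 4.35%. Chromosome 19, which is dense in genes, held 3.26%, against 6.22% and 5.98%. Intron length per chromosome was not used here, and its part in these shares was not tested.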
